A study of Mus musculus with 2 samples.

Results

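Cdk14, the kinase targeted by the hairpin in these mouse mammary basal cells, was described together with the cyclins that activate it and its nearest kinase relatives. The 8 genes were Cdk14, the related PFTAIRE kinase Cdk15, the PCTAIRE kinases Cdk16, Cdk17 and Cdk18, the more distant relative Cdk5, and the cyclin Y genes Ccny and Ccnyl1. They were taken by gene symbol, and all 8 were among the 15239 genes of the table. Messenger RNA was sequenced in 2 libraries. The Scramble control library came from cells with a scrambled short hairpin RNA and the Cdk14-sh library from cells with a hairpin against Cdk14; both are labelled as mammary basal cells of normal mammary gland. The sources used here do not give strain, age, vector, hairpin sequence, time after hairpin delivery or the number of animals. The labels disagree on the material, since the design text names the human breast cancer line MDA-MB-231 and the extraction text names retinas. The identifiers are mouse genes. All 11 of 11 fixed markers of mammary basal cells were in the table. Among them the keratin Krt14 was at 1199.2 FPKM in Scramble control and 994.4 FPKM in Cdk14-sh, and Trp63 at 8.42 and 23.9 FPKM. By the same rule 10 of 12 luminal and 11 of 12 endothelial markers were in the table, with the luminal Krt8 at 455.9 and 222.5 FPKM. Presence in the table alone thus does not settle the material.

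Cdk14 belongs to a small branch of the cyclin-dependent kinases that is named after a short helix in the kinase fold, which carries the motif PSTAIRE in the cell cycle kinases and PFTAIRE or PCTAIRE in this branch. Cyclin Y is anchored to the plasma membrane by a lipid and brings Cdk14 there, where the pair phosphorylates the Wnt co-receptor LRP6 and so prepares it to pass on a Wnt signal, most of all around mitosis. Cyclin Y and its close relative cyclin Y-like 1 (Ccnyl1) also bind and activate Cdk16, whereas Cdk5 is activated by the non-cyclin proteins p35 and p39 and is best known from neurons. In the mammary gland, Wnt signals act on the basal layer, which holds myoepithelial cells and cells with stem cell activity.

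The sequence around the name-giving motif is shown because it defines the branch and tells the kinases apart. Each line gives 45 bases of messenger RNA, 5′ to 3′, with the codons of the 7-residue motif in capitals (GENCODE M21 transcripts, GRCm38).
Cdk14: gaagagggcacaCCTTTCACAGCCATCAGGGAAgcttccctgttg
Cdk15: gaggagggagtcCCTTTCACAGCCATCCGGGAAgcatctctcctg
Cdk16: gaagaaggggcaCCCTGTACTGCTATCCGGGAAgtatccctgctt
Cdk17: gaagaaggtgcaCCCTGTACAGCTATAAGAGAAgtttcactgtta
Cdk18: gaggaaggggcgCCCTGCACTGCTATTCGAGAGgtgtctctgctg
Cdk5: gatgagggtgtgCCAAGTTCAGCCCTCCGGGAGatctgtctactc
The capitals encode PFTAIRE in Cdk14 and Cdk15, PCTAIRE in Cdk16, Cdk17 and Cdk18, and PSSALRE in Cdk5. In the mouse proteins the motif starts at residue 175 of 469 in Cdk14, 143 of 435 in Cdk15, 205 of 496 in Cdk16, 232 of 523 in Cdk17, 161 of 451 in Cdk18 and 45 of 292 in Cdk5. Each window runs across an exon junction. In Cdk14, Cdk15, Cdk16, Cdk17 and Cdk18 that junction lies after base 34 of the window, just past the motif, and in Cdk5 it lies after base 6. On the genome the Cdk14 window spans chr5:5135403-5195311 on the minus strand (exons 5 and 6), the Cdk15 window chr1:59265650-59280579 on the plus strand (exons 4 and 5) and the Cdk16 window chrX:20694713-20695520 on the plus strand (exons 6 and 7). The Cdk17 window spans chr10:93225017-93226034 on the plus strand (exons 7 and 8), the Cdk18 window chr1:132118934-132119133 on the minus strand (exons 6 and 7) and the Cdk5 window chr5:24422677-24422803 on the minus strand (exons 2 and 3).

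At the protein level Cdk14 was closest to Cdk15, with 64.8% identity over 341 aligned residues, and it shared 60.8% with Cdk16 (316 residues) and 60.1% with Cdk17 (338 residues). The PCTAIRE kinases were closer to each other, at 70.2% to 72.6% identity. A hairpin acts through a short antisense match, so shared messenger RNA stretches of 21 bases were counted. Cdk14 shared 3 such stretches with Cdk17 and 0 with each of Cdk15, Cdk16, Cdk18, Cdk5, Ccny and Ccnyl1, with which its longest shared runs were 12 to 15 bases. The 3 stretches lie in 1 run of 23 bases in the coding sequence of both kinases, shown because it is the longest stretch that Cdk14 shares with any of these genes.
Cdk14 and Cdk17: gacatgtggggagttggctgtat
This run is bases 940 to 962 of the Cdk14 coding sequence and bases 1111 to 1133 of the Cdk17 coding sequence. On the genome it spans chr5:5010912-5036433 on the minus strand in Cdk14 and chr10:93232493-93235452 on the plus strand in Cdk17, in each case across an intron. Whether the hairpin targets it is not known, as the hairpin sequence itself was not among the sources used.

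The levels are FPKM, the fragments of a gene scaled to the length of its exons and to the size of the library. Library totals recovered from them were 10186923 reads in Scramble control and 10177185 in Cdk14-sh. Each group holds 1 library, so differences cannot be set against replicate error and are given without tests. Ranges in parentheses after a ratio are exact 95% Clopper-Pearson intervals from the recovered reads, 2 reads taken as 1 fragment; they cover counting error only and compare these libraries, not the conditions. A gene was called measured at a mean of at least 1 FPKM, which 12830 genes and 7 of the 8 passed. Cdk15 did not, and Cdk14 passed only through Scramble control. In bulk RNA, fewer cells of a type and less RNA per cell cannot be told apart.

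Cdk14 itself (ENSMUSG00000028926, chr5:4803391-5420312, minus strand) was at 2.06 FPKM in Scramble control, from 397 reads, and at 0.713 FPKM in Cdk14-sh, from 137 reads. The library labelled Cdk14-sh was thus the lower, at 34.5% of the control level (25.9% to 45.7%). Its level depends on the length it is divided by. The 15 annotated Cdk14 transcripts cover 18877 exonic bases, but the 6 coding ones cover 5983. If all its reads lay in these, they would give 6.51 FPKM and 2.25 FPKM, but where the reads lie is not known. The ratio between the libraries is the same on either length. Among 1662 genes with a mean of 1 to 2 FPKM, 316 (19.0%) had a ratio as low as that of Cdk14 or lower, so a difference of this size was common between these libraries at that level.

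The other PFTAIRE kinase, Cdk15 (ENSMUSG00000026023, chr1:59256906-59352993, plus strand), was at 0.0783 FPKM in Scramble control and 0.314 FPKM in Cdk14-sh. These values rest on 2 and 8 reads, and the ratio of 4.004 (0.396 to 197.2) leaves its direction undetermined at this depth. Cdk14 was therefore the only PFTAIRE kinase with a mean above 1 FPKM.

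Of the PCTAIRE kinases, Cdk16 and Cdk17 were higher in Cdk14-sh and Cdk18 was nearly level. Cdk17 (ENSMUSG00000020015, chr10:93160875-93267071, plus strand), a relative of Cdk16 with a less defined role, was at 12.5 FPKM in Scramble control and 20.1 FPKM in Cdk14-sh. It was 1.61-fold higher (1.41 to 1.83), beyond its counting error, and it is the relative that shares the 23-base run with Cdk14. Of its exonic bases 5.18% overlap Elk3 on the other strand, and reads of both there may not be separated, as the strand setting is unknown. Elk3 was at 5.92 FPKM and 3.83 FPKM, the opposite direction. Cdk16 (ENSMUSG00000031065, chrX:20687954-20699880, plus strand), the partner of cyclin Y in vesicle traffic and spermatogenesis, was at 16.7 FPKM in Scramble control and 20.96 FPKM in Cdk14-sh. Its ratio of 1.25 (1.09 to 1.44) was the smaller of these differences. Cdk18 (ENSMUSG00000026437, chr1:132112237-132139684, minus strand) was at 1.53 FPKM and 1.59 FPKM, from 74 and 77 reads. Its ratio of 1.04 (0.646 to 1.68), or 0.995 with equal summed FPKM, allows a difference of about the size seen in Cdk17.

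Cdk5 (ENSMUSG00000028969, chr5:24418241-24423530, minus strand) was at 7.61 FPKM in Scramble control and 6.98 FPKM in Cdk14-sh, from 168 and 154 reads. The ratio was 0.918 (0.665 to 1.26), a difference within the counting error.

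The cyclin Y genes differed in opposite directions. Ccny (ENSMUSG00000024286, chr18:9312304-9450154, minus strand), which encodes the membrane-anchored partner of Cdk14, was at 7.36 FPKM in Scramble control and 12.1 FPKM in Cdk14-sh, 1.65-fold higher (1.39 to 1.95). Its recovered reads did not fall on steps of 0.5 reads, so its interval is approximate. Ccnyl1 (ENSMUSG00000070871, chr1:64690455-64725644, plus strand) was at 15.9 FPKM in Scramble control, from 560 reads, and at 1.42 FPKM in Cdk14-sh, from 50 reads. It was 11.2-fold lower (7.42 to 17.6), the largest difference among the 7 measured genes and larger than that of the targeted kinase. Among 2566 genes with a mean of 5 to 10 FPKM, 41 (1.60%) were as low as this or lower.

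Part of the Ccnyl1 signal cannot be assigned to one locus. Of the 3406 windows of 50 bases in its transcripts, 808 (23.7%) also occur in Gm16464, a processed pseudogene (chr7:104501055-104502149), and these make up 77.2% of the windows of the pseudogene. Gm16464 was at 13.3 FPKM in Scramble control and 0.628 FPKM in Cdk14-sh, from 148 and 7 reads, 21.1-fold lower (7.46 to 89.7). With the reads of both loci added, 708 against 57, the sum was 12.4-fold lower (8.46 to 18.9), which is the same direction as at each locus. A further 5.93% of Ccnyl1 exonic bases overlap 2810408I11Rik on the other strand. Ccny and Ccnyl1 share 79.5% of 302 aligned residues but 0 windows of 50 bases, and Ccny shares no such window with any other gene.

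**Figure D1:**
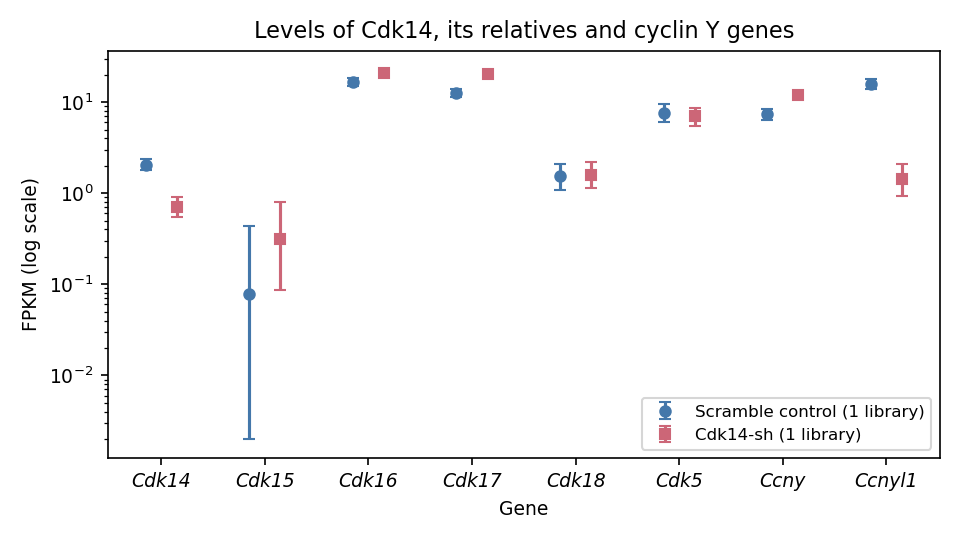
FPKM (log scale) of the 8 genes in the Scramble control library (circles) and the Cdk14-sh library (squares), 1 library each; bars are exact 95% counting intervals. Ccnyl1 lies at 15.9 and 1.42 FPKM and Cdk14 at 2.06 and 0.713 FPKM, while Cdk17 and Ccny lie higher in Cdk14-sh and the bars of Cdk5, Cdk18 and Cdk15 overlap.

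The order of levels, compared per length, differed between the libraries mainly through Ccnyl1. In Scramble control Cdk16 stood first at 16.7 FPKM and Ccnyl1 second at 15.9 FPKM, and these neighbours did not differ beyond counting error (ratio 1.05, 0.898 to 1.23). Cdk17 followed at 12.5 FPKM, then Cdk5 at 7.61 and Ccny at 7.36 FPKM, which did not differ from each other beyond counting error (ratio 1.03). Cdk14 at 2.06 FPKM was 3.56-fold below Ccny and did not differ beyond counting error from Cdk18 at 1.53 FPKM (ratio 1.35, 0.949 to 1.98). Cdk15 came last in both libraries. In Cdk14-sh, Cdk16 at 20.96 and Cdk17 at 20.1 FPKM led without a difference beyond counting error (ratio 1.04), and Ccny followed at 12.1 FPKM. Cdk5 at 6.98 FPKM came next, followed by Cdk18 at 1.59 and Ccnyl1 at 1.42 FPKM, which did not differ beyond counting error (ratio 1.12). Ccnyl1 was 1.99-fold above Cdk14 (1.21 to 3.19), and Cdk14 at 0.713 FPKM did not differ beyond counting error from Cdk15 (ratio 2.27, 0.849 to 8.58). The order depends on the length used. If all reads lay in coding transcripts, Cdk14 would be at 6.51 FPKM in Scramble control, beside Ccny at 7.79 and above Cdk18 at 1.67. In Cdk14-sh it would be at 2.25 FPKM, above Ccnyl1 at 1.42 and Cdk15 at 0.373. Cdk17 would pass Cdk16 in both libraries (20.3 against 20.01 and 32.6 against 25.1 FPKM).

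As shares of summed FPKM, the PFTAIRE and PCTAIRE kinase messages were mostly those of Cdk16 and Cdk17, which together held 88.9% of the sum over Cdk14 to Cdk18 in Scramble control and 94.0% in Cdk14-sh. Cdk14 held 6.27% in Scramble control and 1.63% in Cdk14-sh. The sum of these 5 kinases was 32.9 FPKM in Scramble control and 43.7 FPKM in Cdk14-sh, 1.33-fold higher, while Cdk14 itself was lower. The share of Cdk14 depends on its length: if all reads lay in coding transcripts it would be 13.4% and 3.63%, and in recovered reads it was 19.9% and 5.70%. The cyclin Y pair changed places. Ccnyl1 held 68.4% of its sum in Scramble control and 10.5% in Cdk14-sh, and Ccny held 31.6% and 89.5%. Summed cyclin Y FPKM was 23.3 in Scramble control and 13.5 in Cdk14-sh, 1.72-fold lower, so there was 0.707 FPKM of cyclin Y message per FPKM of kinase message in Scramble control and 0.310 in Cdk14-sh. These values also depend on the scale. In recovered reads the cyclin Y sum was 1.27-fold lower and the ratio to kinases was 0.509 and 0.333. Per coding transcript length the sum was 1.66-fold lower and the ratio was 0.488 and 0.230.

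**Figure D2:**
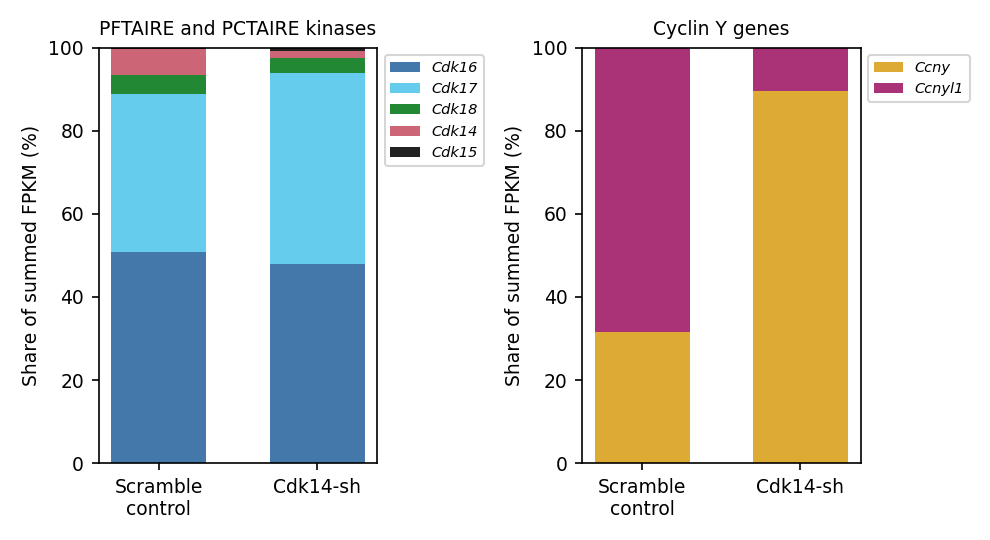
Stacked shares (percent of summed FPKM) of Cdk14 to Cdk18 (left) and of Ccny and Ccnyl1 (right) in the Scramble control and Cdk14-sh libraries, 1 library each. Cdk16 and Cdk17 make up 88.9% and 94.0% of the kinase sum, and Ccny goes from 31.6% to 89.5% of the cyclin Y sum.

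Differences of this kind were frequent over all genes. On the log2(FPKM + 1) scale, 14.2% of the 12830 measured genes passed 2-fold upward in Cdk14-sh and 13.5% downward. Of the 7 measured genes 0 were 2-fold higher and 1, Ccnyl1, was 2-fold lower, with a log2 ratio of -2.80. Cdk14 had a log2 ratio of -0.84 on this scale, short of the limit, since adding 1 FPKM shrinks the ratio of a low gene. At a 1.5-fold limit, 25.2% of all measured genes were higher and 24.5% lower, and of the 7 genes 2 were higher (Ccny at 0.65 and Cdk17 at 0.64) and 2 lower (Cdk14 and Ccnyl1). A counting interval wholly above 1 was found for 35.8% of all measured genes with recovered reads and one wholly below 1 for 33.2%; 3 of the 7 lay above (Ccny, Cdk17 and Cdk16) and 2 below (Cdk14 and Ccnyl1). These counts are close to what those shares give for 7 genes. Cdk14 passed the filter only through Scramble control, so its direction in these counts follows from the filter. The median log2 ratio of all measured genes was 0.02.

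**Figure D3:**
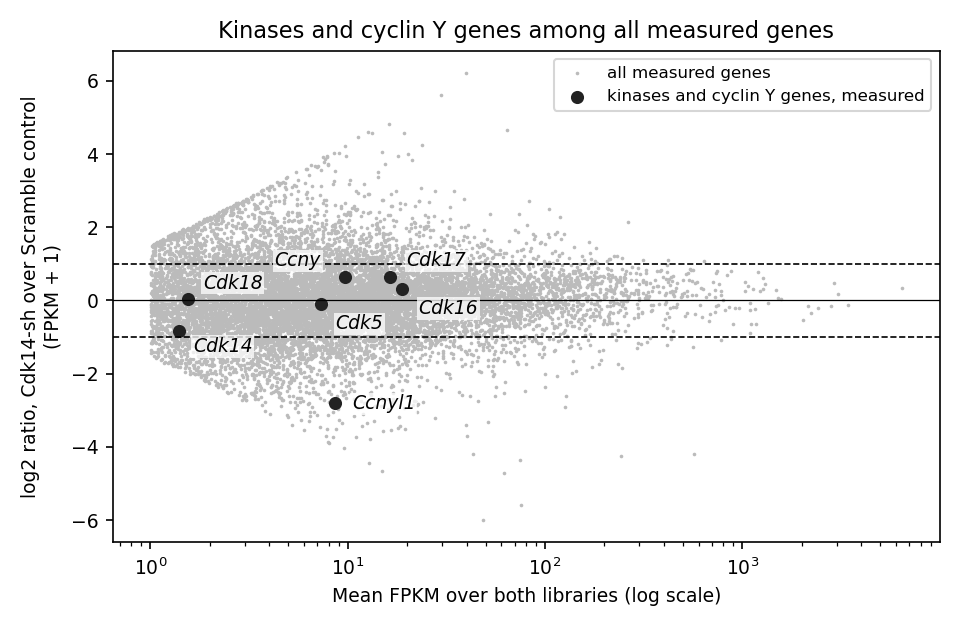
Log2 ratio of Cdk14-sh over Scramble control (FPKM + 1) against mean FPKM (log scale) for all 12830 measured genes (grey) and the 7 measured kinase and cyclin Y genes (black); dashed lines mark 2-fold. Ccnyl1 at -2.80 lies far below the 2-fold line, Cdk14 at -0.84 lies just inside it among many genes of similar level, and the other 5 lie between -0.11 and 0.65.

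Markers of other cell types differed between the libraries as well, so each value above compares libraries that also differed in these lists. The 11 basal markers summed to 3277.5 FPKM in Scramble control and 2533.5 FPKM in Cdk14-sh. Of 11 measured, 1 was at least 2-fold higher and 3 lower, beside 14.2% and 13.5% of all measured genes. The 11 of 12 endothelial markers in the table summed to 230.4 FPKM and 62.04 FPKM, with 7 of 10 measured at least 2-fold lower. Of these, Emcn, Tek and Tie1 passed the filter only through Scramble control. The 7 of 12 immune markers in the table summed to 79.7 FPKM and 361.8 FPKM, with 5 of 5 measured at least 2-fold higher, although the pan-leukocyte gene Ptprc was at 0.482 and 0.247 FPKM. Of the 5, Fcer1g passed the filter only through Cdk14-sh. Luminal markers (10 of 12 in the table) summed to 1501.3 and 875.7 FPKM, but their members differed in direction. Of 6 measured, 3 were at least 2-fold lower and 1, Krt19 (20.5 and 42.9 FPKM), was higher. The luminal genes Kit, Pgr, Esr1 and Prlr, in the table but not measured, were also higher. Pericyte markers (5 of 8) summed to 127.3 and 60.0 FPKM. Of 4 measured, 3 were at least 2-fold lower and 1, Des (0.0523 and 2.41 FPKM), was higher. Des passed the filter only through Cdk14-sh, and Abcc9, among the lower, only through Scramble control. Fibroblast markers (7 of 9) summed to 301.5 and 120.8 FPKM, but their members differed in direction: 3 of 7 measured were at least 2-fold lower, with Gsn (185.3 and 43.8 FPKM) and Dcn (104.3 and 41.2 FPKM) carrying the sum, and 3 were at least 2-fold higher, among them Col3a1 (1.18 and 8.77 FPKM). The median log2 ratio of the fibroblast list was 0.84, and Thy1, among the lower, passed the filter only through Scramble control. Of 5 adipocyte markers, Fabp4 alone was in the table, at 94.3 and 8.45 FPKM. Their part in the values of Cdk14, its relatives and the cyclin Y genes was not tested.

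The genes nearest to Cdk14 in both libraries, by distance over the 2 log2 FPKM values, were Dapk2, a death-associated kinase (2.07 and 0.700 FPKM, distance 0.028), Ntn1, which encodes the guidance cue netrin (2.06 and 0.689 FPKM, distance 0.050), and the claudin gene Cldn22 (2.02 and 0.691 FPKM, distance 0.054). Those nearest to Ccnyl1 were the small nucleolar RNA Snora75 (16.6 and 1.48 FPKM, distance 0.084), Wdr60, a dynein subunit of cilia (14.8 and 1.32 FPKM, distance 0.15), and Taf5, a subunit of the general transcription factor TFIID (15.6 and 1.25 FPKM, distance 0.19). With 2 libraries such likeness rests on 2 values per gene.

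Of the proteins reported to bind Cdk14 or cyclin Y or to be their substrates, 22 of 24 were in the table and 20 measured, the cyclin Y genes and Cdk14 among them. At least 2-fold differences were found for 2 higher and 2 lower, beside 14.2% and 13.5% of all measured genes. The median log2 ratio was -0.02 (0.03 with the unmeasured genes included), against 0.02 over all measured genes. Ccnyl1 was the lowest and Cald1 the next, the actin-binding caldesmon that Cdk14 is reported to phosphorylate. Cald1 was at 69.4 FPKM in Scramble control and 21.2 FPKM in Cdk14-sh, 3.28-fold lower (3.08 to 3.49). Another reported substrate, the actin-binding gene Tagln2, was at 152 and 137 FPKM, a ratio of 0.902 (0.840 to 0.969). The highest were Prc1, a microtubule bundler of the dividing cell, at 0.0239 and 4.002 FPKM (ratio 168, 29.7 to 6661), and Ccnd3, a D-type cyclin reported to bind Cdk14, at 2.19 and 8.49 FPKM (3.87-fold higher, 3.09 to 4.89). Prc1 passed the filter only through Cdk14-sh, so its call past 2-fold follows from the filter. Lrp6, the receptor that the Cdk14 and cyclin Y pair phosphorylates, was at 9.41 and 9.24 FPKM, a ratio of 0.981 (0.879 to 1.10). Tagln2 and Lrp6 are named for these roles and not for their ratios.

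The 14-3-3 proteins bind phosphorylated Cdk14, Cdk16 and cyclin Y and were all in the table. Of 7 measured, 0 were past 2-fold in either direction, where 14.2% of all measured genes were higher and 13.5% lower. Their median log2 ratio was 0.24. The lowest were Sfn, the epithelial 14-3-3 sigma, at 802.6 and 644.9 FPKM (ratio 0.804, 0.775 to 0.833), and Ywhag at 40.6 and 39.9 FPKM. The highest were Ywhaq at 100.2 and 149.9 FPKM (ratio 1.496, 1.40 to 1.60) and Ywhae at 347.3 and 496.8 FPKM (ratio 1.43, 1.38 to 1.49). Each of the 7 was above every one of the 8 kinase and cyclin Y genes in FPKM in both libraries.

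Of 30 symbols listed for genes that act where LRP6 is phosphorylated, 27 were in the table and 24 measured. The absent Mesd is another symbol of the listed Mesdc2. At least 2-fold higher were 2 and lower 1, beside 14.2% and 13.5% of all measured genes, and the median log2 ratio was 0.20. With a pseudocount of 0.1 FPKM, 4 were higher and 1 lower, but the shares of all measured genes at that pseudocount are not given here. By plain FPKM, Grk5 was 2.43-fold higher (1.73 to 3.47) and Mesdc2 2.11-fold (1.72 to 2.60). The lowest was Caprin2, reported to help cyclin Y and Cdk14 act on LRP6, at 5.97 FPKM in Scramble control and 1.49 FPKM in Cdk14-sh, 4.02-fold lower (3.24 to 5.01). Next came Grk6, a receptor kinase, at 5.57 and 2.91 FPKM. The highest were Dvl1, a dishevelled scaffold of the Wnt receptor, at 1.38 and 7.83 FPKM (ratio 5.69, 3.96 to 8.40), and Gprc5a, an orphan receptor, at 4.90 and 15.7 FPKM (ratio 3.20, 2.33 to 4.45). The other dishevelled genes were close to level, with Dvl2 at 10.5 and 9.51 FPKM and Dvl3 at 6.37 and 5.76 FPKM, named here for that family.

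For Cdk5, 9 of 12 listed activators and binders were in the table and 8 measured. At least 2-fold higher were 0 and lower 1, beside 14.2% and 13.5% of all measured genes. The median log2 ratio was -0.08, or 0.02 with the unmeasured gene included. Cdk5r1, which encodes the activator p35, was the highest, at 1.13 FPKM in Scramble control and 2.03 FPKM in Cdk14-sh, a ratio of 1.79 (1.06 to 3.09). Capn1, which encodes a calpain that cleaves p35, was next at 2.25 and 3.42 FPKM (ratio 1.52, 0.995 to 2.35). The lowest were Nes, the intermediate filament nestin that Cdk5 phosphorylates, at 5.88 and 1.95 FPKM (3.02-fold lower, 2.26 to 4.08), and Capn2, the other common calpain, at 54.1 and 30.6 FPKM. Nes alone of this list passed the 2-fold limit on the log2(FPKM + 1) scale; by plain FPKM Cdk5rap2 was also 2.04-fold lower (1.69 to 2.48), at 4.98 and 2.44 FPKM.

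Of 20 symbols listed for other Cdk genes, 15 were in the table. Among 13 measured, 0 were 2-fold higher and 0 lower, beside 14.2% and 13.5% of all measured genes. Their median log2 ratio was 0.21. By plain FPKM Cdk9 was 2.12-fold higher (1.66 to 2.71). Without the filter on low values 1 passed 2-fold upward, Cdk1 (0.0570 and 1.43 FPKM), and 0 downward. Shares of all genes without that filter are not given here. Cdk2 was lowest, at 55.9 and 28.04 FPKM, followed by the transcription kinase Cdk13 at 4.59 and 3.03 FPKM, and the highest were Cdk9, the elongation kinase, at 4.30 and 9.10 FPKM and Cdk4, the partner of D-type cyclins, at 43.2 and 76.1 FPKM. The other cyclins spread further, with 7 of 23 measured at least 2-fold higher and 2 lower and a median log2 ratio of 0.43, or -0.01 among those averaging at least 5 FPKM. The cell cycle cyclins Ccnb1 (0.0466 and 7.43 FPKM) and Ccna2 (0.0721 and 3.07 FPKM) were highest, and Ccne1 (5.68 and 0.295 FPKM) and Ccnjl (15.8 and 5.07 FPKM) were lowest. Ccnb1 and Ccna2 passed the filter only through Cdk14-sh, and Ccne1 only through Scramble control. The calls of these genes past 2-fold follow from that filter. Ccnyl1, with a log2 ratio of -2.80, lay below Ccne1 at -2.37 on the log2(FPKM + 1) scale, but the plain FPKM ratio of Ccne1 was the lower, 19.2-fold (7.21 to 72.4) against 11.2-fold for Ccnyl1. Of 5 measured Cdk inhibitors 1 was at least 2-fold higher, Cdkn1c (39.7 and 197 FPKM), followed by Cdkn2b (16.2 and 19.2 FPKM). One inhibitor, Cdkn2d (30.1 and 8.74 FPKM), was at least 2-fold lower and Cdkn1b was at 15.4 and 8.81 FPKM.

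**Figure D4:**
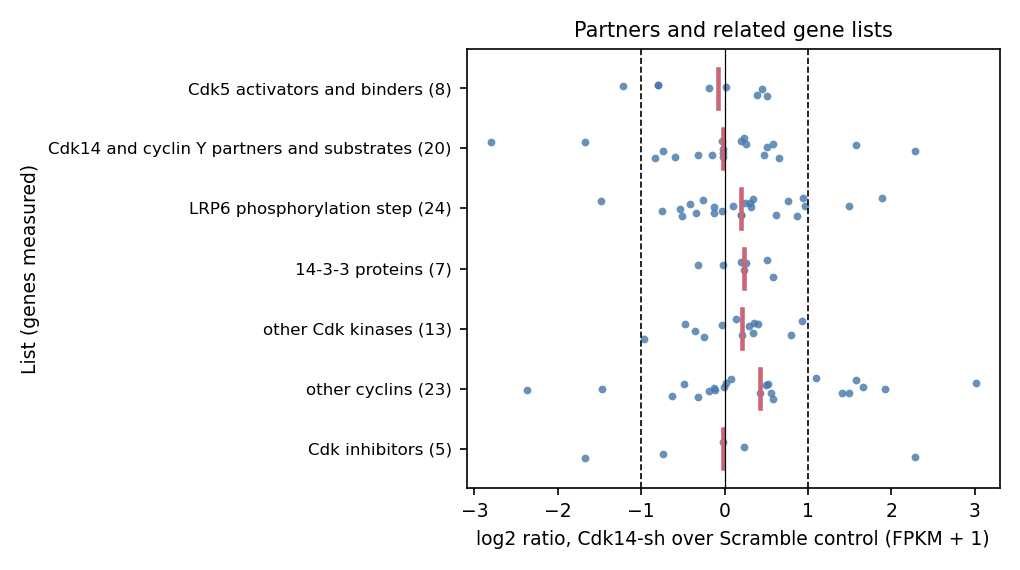
Log2 ratio of Cdk14-sh over Scramble control (FPKM + 1) for every measured gene of 7 lists (points; the number measured is in parentheses), with the list's median (bar) and the 2-fold limits (dashed lines). The medians lie between -0.08 and 0.43. Past a limit lie 9 of the 23 other cyclins, 4 of 20 partners and 3 of 24 genes of the LRP6 step. Of 5 Cdk inhibitors, 1 lies past the upper and 1 past the lower limit. Of 8 genes of the Cdk5 list, 1 lies past the lower limit. Ccnb1, Ccna2, Ccne1 and Prc1 passed the filter only through 1 library. Over all measured genes, 14.2% pass 2-fold upward and 13.5% downward.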

How the data were processed

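Messenger RNA libraries were made from 1 µg of total RNA with a stranded kit, per the labels' protocols. The submitters' processing notes list Bowtie 0.12.2, featureCounts, Subread 1.5.1 and 2 builds, GRCm38 and mm8, whose uses they do not state. Settings for strand and multiple mapping were not given in the sources used here. One deposited table holds FPKM values made by the authors, with a column per library. None of its 15239 genes is at 0 in either library.

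Reads were recovered as FPKM times exonic length (GENCODE M21) in steps of 0.5 reads; 79.1% of 15195 genes with a length fell on a step in both libraries (tolerance 0.01), as did 7 of the 8 genes described. Log2 ratios use a pseudocount of 1 FPKM. Depth recovery was tested on simulated data. Proteins were aligned with BLOSUM62. Tools were Python 3.11.15, pandas 2.3.3, SciPy 1.17.1, Biopython 1.88 and matplotlib 3.10.9.

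The 8 genes, the lists, the named genes and taking 2 reads as 1 fragment were chosen with earlier results of these data known. Named are the 8 genes, the 2 highest and 2 lowest measured genes of each list, genes whose known role the text turns on, and the 3 genes nearest in pattern to Cdk14 and to Ccnyl1. Alternatives were pseudocounts of 0.1 and 5, other filters and fold limits, 3 scalings, and shares by reads; shares by coding transcript length and the sum of Ccnyl1 and Gm16464 were added after seeing the data.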

Additional observations from a re-analysis of the deposited data

How the results depend on the processing

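Of 176 alternative values, 146 stayed within the tolerance for their kind and 30 moved. In 5 the direction changed, none of them past a limit: the Cdk18 ratio was 0.995 with equal summed FPKM (1.04 as reported), and without a filter on low values the median log2 ratio was 0.02 for the Cdk5 list (-0.08), 0.03 for the partners (-0.02) and 0.10 for the Cdk inhibitors (-0.02). The fifth was the median of the other cyclins, -0.01 in place of 0.43 when only genes averaging 5 FPKM or more were kept. Of 24 rescaled ratios of the 8 genes 0 moved, under scalings that multiplied the Cdk14-sh values by 0.984 (median ratio), 0.983 (upper quartile) and 0.955 (summed FPKM). With a 1.5-fold limit, 2 of the 7 measured genes were higher (0 at 2-fold) and 2 were lower (1 at 2-fold). Of all measured genes 25.2% were higher and 24.5% lower at that limit. With a pseudocount of 0.1 FPKM, 2 of the 7 were at least 2-fold lower, Cdk14 being the added one. The share of all measured genes at that pseudocount is not given here. In recovered reads, Cdk14 held 19.9% of the kinase sum in Scramble control and 5.70% in Cdk14-sh, and Ccny 44.9% and 93.8% of the cyclin Y sum; per coding transcript length, Cdk14 held 13.4% and 3.63%. These differ by construction, since the divisor is another length. Of 70 counts of list genes past 2-fold, 13 moved.

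No paired analysis was possible because each group holds 1 library. Leaving out a library was not possible either. Depth limits Cdk15, with 2 and 8 reads, for which a difference in either direction was not detectable, and Cdk18, with 74 and 77 reads.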

Other observations

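On the chromosomes, 4 of the 8 genes have a Frizzled gene as a nearest neighbour in the table. Frizzled genes encode the Wnt receptors that pair with LRP6, and 9 of them are in the table. This was noticed after the values were seen. Fzd1, 45356 bases from Cdk14, was at 12.8 FPKM in Scramble control and 8.99 FPKM in Cdk14-sh, 1.43-fold lower (1.18 to 1.73). Fzd5, 4914 bases from Ccnyl1, was at 4.27 and 2.64 FPKM, 1.62-fold lower (1.24 to 2.12). Fzd7, 129431 bases from Cdk15, was at 30.3 and 14.6 FPKM, 2.08-fold lower (1.82 to 2.37). Fzd8, 94168 bases from Ccny, was at 2.93 and 0.235 FPKM, 12.5-fold lower (5.86 to 31.6), although Ccny itself was higher. The counting intervals of these 4 Frizzled genes lay wholly below 1, as did those of 33.2% of all measured genes. Fzd8 reached a mean of 1 FPKM only through Scramble control. Whether the position of these genes had a part was not tested. Of the 5 others, Fzd3 was at 5.81 and 5.21 FPKM (ratio 0.897, 0.772 to 1.04), and Fzd2 at 1.02 and 1.56 FPKM (ratio 1.53, 0.828 to 2.88). Fzd4 (0.0584 and 3.04 FPKM), Fzd6 (0.570 and 5.56 FPKM) and Fzd10 (0.242 and 2.18 FPKM) were higher beyond counting error, as were 35.8% of all measured genes. Each of them reached a mean of 1 FPKM only through Cdk14-sh.

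Among neighbours other than these, Lta4h beside Cdk17 was lower, at 22.5 FPKM in Scramble control and 7.86 FPKM in Cdk14-sh (ratio 0.350, 0.301 to 0.405), as was Thoc1 beside Ccny, at 33.1 and 26.6 FPKM (ratio 0.804, 0.744 to 0.867). Others were higher. Cldn12, on the other side of Cdk14, was at 11.03 and 17.8 FPKM, 1.61-fold higher (1.37 to 1.90). Usp11, a deubiquitinase gene 4026 bases from Cdk16, was at 0.0830 FPKM in Scramble control and 8.85 FPKM in Cdk14-sh, a ratio of 107 (29.2 to 886), while Uba1 on the other side of Cdk16 was at 26.9 and 34.5 FPKM (ratio 1.28, 1.16 to 1.42).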
